A study of Homo sapiens with 4 samples.

Results

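A set of 8 human microRNAs (miRNAs), named for precursors that can be made without the nuclease Drosha, was followed from parental cells to spheres of HT29 and HCT15: hsa-miR-320a, hsa-miR-320b, hsa-miR-320c, hsa-miR-320d, hsa-miR-320e, hsa-miR-484, hsa-miR-877-5p and hsa-miR-877-3p, written without hsa- from here on. They were chosen by name, not by level, though with earlier results of these data known. All 8 were listed in each of the 4 deposited files, among 2080 names in any file and 1882 in all 4. HT29 and HCT15 are established human colorectal cancer cell lines, and small RNA was sequenced from total RNA of each line in 2 cultures. HT29 parental cells were grown in DMEM and HCT15 parental cells in RPMI, both with 10% fetal bovine serum (FBS). Spheres of both lines, called sphere-derived cancer stem cells by the submitters, were grown in DMEM-F12 to which EGF and recombinant bFGF, each at 10 ng/ml, and N2 Plus Supplement were added. Penicillin-streptomycin was in all media. There was 1 library per line and culture, so culture form, medium, serum and growth factors cannot be told apart, and nothing says that any culture was repeated. The labels name no sort for a marker.

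Most miRNAs are cut from a long primary transcript by Drosha with its partner DGCR8, exported to the cytoplasm and cut again by Dicer. In a few cases the first cut is bypassed. The precursors of miR-320 and miR-484 can be produced directly by transcription, so that the hairpin begins at the transcription start and carries a cap, and Dicer makes the only cut. miR-877 is a mirtron: its hairpin is a whole short intron, released by splicing and debranching, which then goes to Dicer. What is known of how miR-320 is made rests mainly on the miR-320a locus, and miR-320b to miR-320e are near-identical copies elsewhere in the genome.

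The mature sequences below show which of these miRNAs can share targets and which can share reads. They were taken from RefSeq (GRCh38.p14), which matched 7 of the 8 names used here. Each is written 5′ to 3′ with the seed, bases 2 to 8, in capitals.
miR-320b: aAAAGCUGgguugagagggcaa
miR-320c: aAAAGCUGgguugagagggu
miR-320d: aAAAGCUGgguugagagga
miR-320e: aAAGCUGGguugagaagg
miR-484: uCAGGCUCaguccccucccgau
miR-877-5p: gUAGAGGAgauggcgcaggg
miR-877-3p: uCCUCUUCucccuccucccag
The miR-320 names printed here share a run of 15 bases, aaagcuggguugaga, and part company only near the 3′ end. Counted from 1 at the 5′ end of miR-320b, miR-320c ends 2 bases earlier and differs by C20U, while miR-320d ends 3 bases earlier and differs by G19A. miR-320e begins 1 base later, which shifts its seed from AAAGCUG to AAGCUGG, and differs from miR-320b by G17A. A trimmed read can therefore match several of these names. miR-484 and the arms of miR-877 share no seed with the miR-320 names or with each other.

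The hairpin of miR-877 shows the signature of a mirtron. It is printed whole, with the capitals marking its first and last 2 bases, which are the first and last bases of the intron.
MIR877 hairpin: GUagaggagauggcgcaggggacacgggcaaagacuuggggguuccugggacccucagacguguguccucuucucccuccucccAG
It spans chr6:30584332-30584417 on the plus strand (GRCh38, 86 bases) within an intron of ABCF1, which encodes an ATP-binding cassette protein linked to translation initiation. In GENCODE 29, 3 exon records of ABCF1 end at the base just before the hairpin and 3 start at the base just after it, so the hairpin and the intron coincide. miR-877-5p begins at the first base of the intron and miR-877-3p ends at its last. Of the 1562 hairpins in the RefSeq table used, 36 (2.305%) begin with GU and end with AG, among them 9 of the 9 other mirtrons listed for comparison. The hairpins of MIR484, MIR320B1, MIR320B2, MIR320C1, MIR320C2, MIR320D1, MIR320D2 and MIR320E do not have both ends.

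MIR484 (chromosome 16, 15643294 to 15643372, plus strand) lies in an untranslated part of an exon of NDE1, a gene of centrosome and spindle function, and starts 27 bases downstream of the nearest annotated start of an NDE1 transcript. miR-320b can come from MIR320B1 (mature bases at chromosome 1, 116671787 to 116671808, plus strand), which overlaps no annotated gene, or from MIR320B2 (chromosome 1, 224257049 to 224257070, minus strand), which NVL holds in an intron. miR-320c has 2 loci on chromosome 18, at 21683559 to 21683578 and 24321716 to 24321735, both on the plus strand and opposite introns of ABHD3 and OSBPL1A. The loci of miR-320d are on chromosome 13 (40727828 to 40727846, minus strand) and chromosome X (140926172 to 140926190, minus strand), outside annotated genes. miR-320e maps to chromosome 19 (46709294 to 46709311, minus strand), where PRKD2 has an intron. A mature sequence with several loci does not tell which of them was transcribed.

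Levels are given in CPM, reads scaled so that all listed miRNA reads of a library sum to 1000000. Total listed reads ranged from about 2317669.9 in HCT15 spheres to 12794274 in HT29 spheres. Reads carry no molecular identifiers, and intervals throughout are 95% intervals that cover counting error only. HCT15 values were deposited as RPKM and converted to approximate reads, which need not be whole. The miRNAs of colorectal epithelium (6 of 6 with reads in every library) summed in HT29 to 141900 CPM before and 214179 CPM after sphere culture, and in HCT15 to 17217.8 and 14835.9 CPM. The sums hide unlike members. In HT29 only miR-194-5p was lower in spheres by CPM (20136 and 15240 CPM). Its direction turns with the scaling: after the TMM scaling described below its log2 ratio was 0.15 (0.14 to 0.16). With that scaling the intervals of all 6 lay above 0 in HT29. In HCT15 miR-375 (10468 and 7563 CPM), miR-194-5p and miR-215 were lower by CPM, with TMM log2 ratios of -0.12, 0.27 and -0.06. There miR-192-5p (2622 and 3081 CPM), miR-141-3p (2861 and 2960 CPM) and miR-200c-3p (972 and 993 CPM) were higher. Of the 7 markers of other cells, miR-223-3p was listed at 0 in all 4 libraries, and miR-145-5p and miR-451a did not exceed 1.72 CPM. Stromal miR-143-3p did not exceed 6.10 CPM. The summed blood-cell list was at 386 and 370.2 CPM in HT29 and at 45.2 and 36.7 CPM in HCT15. Nearly all of it was miR-142-3p in HT29 (381 and 367 CPM) and miR-486-5p in HCT15 (43.0 and 34.9 CPM). Endothelial miR-126-3p was at 132 and 147 CPM in HT29 and 12.2 and 8.63 CPM in HCT15. The part of these in the results below was not tested.

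Together the 8 miRNAs were a small share of each library. Their share of reads was 0.172% in the parental and 0.0957% in the sphere library of HT29, against 0.521% and 0.462% in HCT15. In HT29 the most abundant of them was miR-877-5p, whereas in HCT15 miR-320a and miR-320b led.

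miR-320a, a miRNA with reported roles in cell metabolism and growth control, measured 313 CPM (HT29 parental), 246 CPM (HT29 spheres), 1883 CPM (HCT15 parental) and 2023 CPM (HCT15 spheres). miR-320b stood next to it in every library, at 294, 218, 1905 and 1906 CPM in the same order. The order of these neighbours was not separated in the parental libraries, where their shares of miR-320 reads overlapped in their intervals. miR-320c was at 30.8 and 21.2 CPM in HT29 and at 462 and 183 CPM in HCT15.

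The last members of the family were scarce. In the same order of libraries, miR-320d measured 17.4, 15.3, 3.95 and 1.74 CPM, and miR-320e 8.96, 6.02, 1.997 and 0.839 CPM. The HCT15 levels of both rested on between about 1.94 and 12.6 reads, near the 3 reads that a count of 0 allows (0.942 CPM in parental cells and 1.29 CPM in spheres). miR-320e in HCT15 spheres was below that limit, as was miR-877-3p there.

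miR-484, which is reported to restrain mitochondrial fission, measured 80.4 and 16.3 CPM in the parental and sphere libraries of HT29 and 260 and 217 CPM in those of HCT15. HT29 spheres were the low library. miR-877-5p measured 971 CPM (HT29 parental), 434 CPM (HT29 spheres), 685 CPM (HCT15 parental) and 283 CPM (HCT15 spheres), so both sphere libraries lay below both parental ones. The other arm, miR-877-3p, was at 2.07, 0.625, 4.14 and 1.04 CPM, on 12, 8, 13.2 and 2.40 reads.

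**Figure D1:**
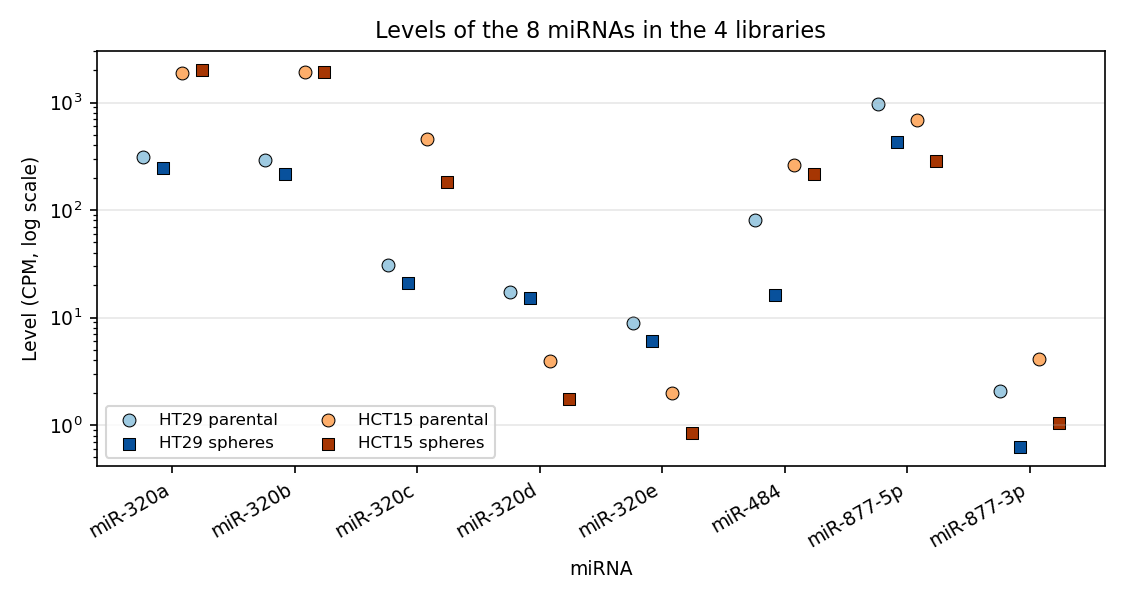
Level of each miRNA (y axis, CPM on a log scale) in the 4 libraries, with circles for parental cells, squares for spheres, blue for HT29 and orange to brown for HCT15; each symbol is 1 library. miR-320a to miR-320c and miR-484 are higher in HCT15, miR-320d and miR-320e are higher in HT29, and both sphere libraries are lowest for miR-877-5p.

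The lines thus held different amounts of the family. Files of the lines were deposited in different units, so these folds between lines were not tested. Among parental cells the summed miR-320 level was 664 CPM for HT29 and 4256 CPM for HCT15, 6.41-fold higher, and 507 against 4114 CPM in spheres, 8.12-fold higher. miR-320d and miR-320e went the other way: miR-320d was 4.40-fold higher in HT29 among parental cells and 8.81-fold higher among spheres. miR-877-5p differed least between the lines among those over 10 CPM, 1.42-fold higher in HT29 as parental cells and 1.53-fold as spheres. miR-484 was 3.24-fold higher in HCT15 among parental cells and 13.3-fold higher among spheres. The way reads common to several miR-320 names were assigned is not given in the sources used here and may have differed between the lines. In HCT15, miR-484 came to whole reads (829 and 504), while miR-320d came to 12.58 and 4.03 reads and miR-320e to 6.36 and 1.94. Fractions were not particular to the miR-320 names: miR-877-5p came to 2180.58 and 655.85 reads and miR-877-3p to 13.2 and 2.40. The part of read assignment in the line differences was not tested.

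Ratios of spheres over parental cells were taken on a log2 scale after TMM scaling, which assumes that most miRNAs do not change. In such bulk libraries, fewer cells holding a miRNA and less of it per cell cannot be told apart. In HT29 miR-484 was lowest, with a log2 ratio of -1.74 (interval -1.99 to -1.51), a 3.33-fold lower level in spheres. miR-877-5p had -0.61 (-0.66 to -0.56) in HT29 and -0.92 (-1.05 to -0.80) in HCT15, levels 1.53-fold and 1.90-fold lower. It was the only one of the 8 over 10 CPM in both lines whose interval lay below 0 in both. Under all 6 scalings tried it was lower in spheres, from -1.16 to -0.35 in HT29 and from -1.27 to -0.68 in HCT15. miR-877-3p had -0.97 (-2.67 to 0.24) and -1.22 (-5.08 to 0.25), so a difference was not detectable at its depth.

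The main miR-320 names had small ratios. miR-320a had a ratio of 0.21 (0.12 to 0.29) in HT29 and 0.45 (0.40 to 0.51) in HCT15, and miR-320b 0.12 (0.03 to 0.21) and 0.35 (0.29 to 0.41). Their HT29 direction is set by the scaling: with total reads in place of TMM they were at -0.34 and -0.43. In HCT15 they ranged over the scalings from 0.10 to 0.70 and from 0.00 to 0.59. miR-320d in HT29 had 0.36 (0.02 to 0.73), which also turned negative with total reads, and in HCT15 its interval of -2.97 to 0.80 spanned 0, as did that of miR-320e in both lines.

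miR-320c did not follow miR-320a and miR-320b in HCT15. Its ratio there was -0.98 (-1.14 to -0.83), from about 1472 to 425 reads, and it was negative under all 6 scalings (-1.33 to -0.74). In HT29 it had 0.01 (-0.27 to 0.29), from 179 to 271 reads. miR-484 showed the reverse arrangement, with 0.09 (-0.07 to 0.25) in HCT15 from 829 to 504 reads, in libraries of unequal depth, and a sign there that depends on the scaling.

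**Figure D2:**
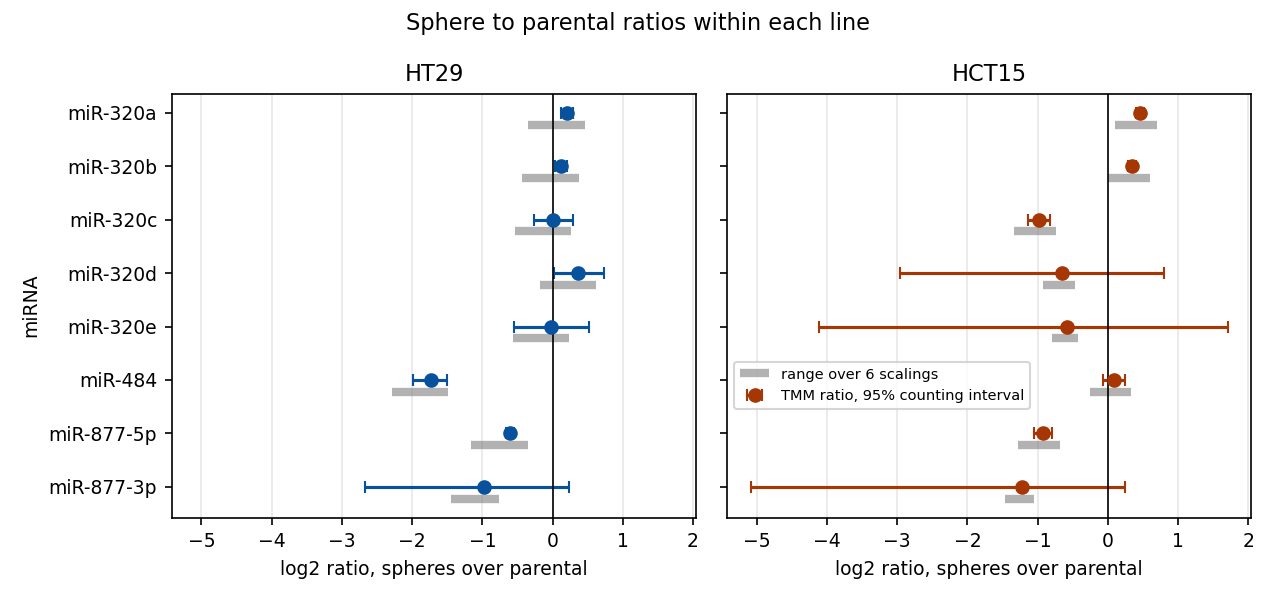
Log2 ratio of spheres over parental cells (x axis) for each miRNA in HT29 (left) and HCT15 (right); points are TMM-scaled ratios with 95% counting intervals, and grey bars give the range over 6 scalings. miR-877-5p lies below 0 in both panels, miR-484 at -1.74 only in HT29, and miR-320c at -0.98 only in HCT15, a contrast that was not tested between lines; the grey bars of miR-320a and miR-320b cross 0 in HT29.

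Read against all miRNAs, these ratios were not unusual as a group. In HT29, 351 miRNAs reached a mean of 10 CPM; 19.9% of them were at least 2-fold lower in spheres and 12.3% at least 2-fold higher. Of the 8 miRNAs 6 passed that minimum (all but miR-320e and miR-877-3p), and 1 was at least 2-fold lower, miR-484, and 0 higher. Their median log2 ratio was 0.06, beside -0.09 for all 351. In HCT15, 6.15% of 325 were at least 2-fold lower and 8.92% at least 2-fold higher, and 0 of the 5 that passed (all but miR-320d, miR-320e and miR-877-3p) were in either class. The median of these 5 was 0.09, beside 0.05 for all 325. Counting intervals were narrow for most miRNAs: they lay below 0 for 47.0% in HT29 and 33.2% in HCT15, and above 0 for 38.5% in HT29 and 38.5% in HCT15. Of the members that passed, 2 of 6 were below and 3 of 6 above in HT29, and 2 of 5 below and 2 of 5 above in HCT15. The middle 50% of log2 ratios ran from -0.78 to 0.52 in HT29 and from -0.44 to 0.45 in HCT15. miR-484 in HT29 lay below that range, as did miR-877-5p and miR-320c in HCT15, whereas miR-877-5p in HT29 lay within it. In HCT15 miR-320a, at 0.452, lay just above the upper end of 0.446.

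Across both lines, limma with cell line as a block and the 2 lines as the replicates called 0 of 377 miRNAs (0.0%) at a Benjamini-Hochberg adjusted p under 0.05. Before adjustment, 21 had a limma p under 0.05. The quasi-likelihood test of edgeR called 0 as well, where 18 had an unadjusted p below that threshold, whereas DESeq2 on reads called 5, of which 0 were among the 8. The test covered 6 of the 8, and miR-320e and miR-877-3p fell below its minimum of 10 CPM in 2 libraries. By limma, miR-877-5p had a log2 fold change of -0.77 (SE 0.42, adjusted p = 0.736), lower in 2 of 2 lines. miR-484 had -0.80 (SE 0.62, adjusted p = 0.736 by limma), which averages its unequal ratios in the lines. For miR-320c the limma value was -0.49 (SE 0.48, adjusted p = 0.786) and for miR-320d -0.13 (SE 0.41, adjusted p = 0.951). miR-320a had 0.33 (SE 0.41, adjusted p = 0.810) and miR-320b 0.23 (SE 0.41, adjusted p = 0.887) in the same limma fit. With 2 lines and 1 residual degree of freedom, these values say little of differences that small.

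Whether the miRNAs moved together can be asked without any scaling, by comparing the ratio of one with that of another in the same libraries. Of the 28 pairs, 12 in HT29 and 11 in HCT15 had a difference of log2 ratios whose interval excluded 0. In 6 pairs this held in both lines, in 4 of them with the same direction and in 2 with opposite directions. The 8 therefore did not move as 1 group in either pair of libraries, within counting error. The share of such pairs among all miRNAs was not computed, so these counts do not set the 8 apart. Intervals of single miRNAs often excluded 0 as well, lying below it for 47.0% and above it for 38.5% in HT29. In HCT15 they lay below 0 for 33.2% and above it for 38.5%.

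The 4 pairs with the same direction all set miR-320a or miR-320b above miR-484 or miR-877-5p. Relative to miR-320a, the log2 ratio of miR-877-5p was at -0.82 (interval -0.92 to -0.72) in HT29 and -1.38 (-1.52 to -1.24) in HCT15, or 1.76-fold and 2.60-fold lower. Reads of miR-877-5p were 1.46 times those of the summed miR-320 names in HT29 parental cells and 0.856 times in spheres. In HCT15 the corresponding values were 0.161 and 0.0688. On the same footing, miR-484 was at -1.96 (-2.21 to -1.70) in HT29 and -0.36 (-0.53 to -0.19) in HCT15.

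The pairs with opposite directions both held miR-484. Set against miR-877-5p, miR-484 was lower in HT29, at -1.14 (-1.39 to -0.89), and higher in HCT15, at 1.02 (0.81 to 1.22). Set against miR-484, miR-320c was higher in HT29, at 1.76 (1.39 to 2.13), and lower in HCT15, at -1.07 (-1.30 to -0.85). The order of miR-484 and the mirtron arm miR-877-5p was thus reversed between these library pairs.

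Within the miR-320 family, miR-320b stayed within -0.09 (-0.21 to 0.03) of miR-320a in HT29 and -0.10 (-0.18 to -0.02) in HCT15. In HT29, miR-320c, miR-320d and miR-320e differed from miR-320a by -0.20 (-0.49 to 0.10), 0.16 (-0.20 to 0.53) and -0.23 (-0.76 to 0.31), intervals that all include 0. In HCT15 miR-320c was at -1.44 (-1.61 to -1.27) relative to miR-320a, 2.71-fold lower. The arms of miR-877, which leave the same hairpin, differed by -0.56 (-2.06 to 0.85) in HT29 and -0.97 (-4.16 to 1.18) in HCT15, miR-877-3p against miR-877-5p. Those intervals are too wide to tell whether the arms moved alike.

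**Figure D3:**
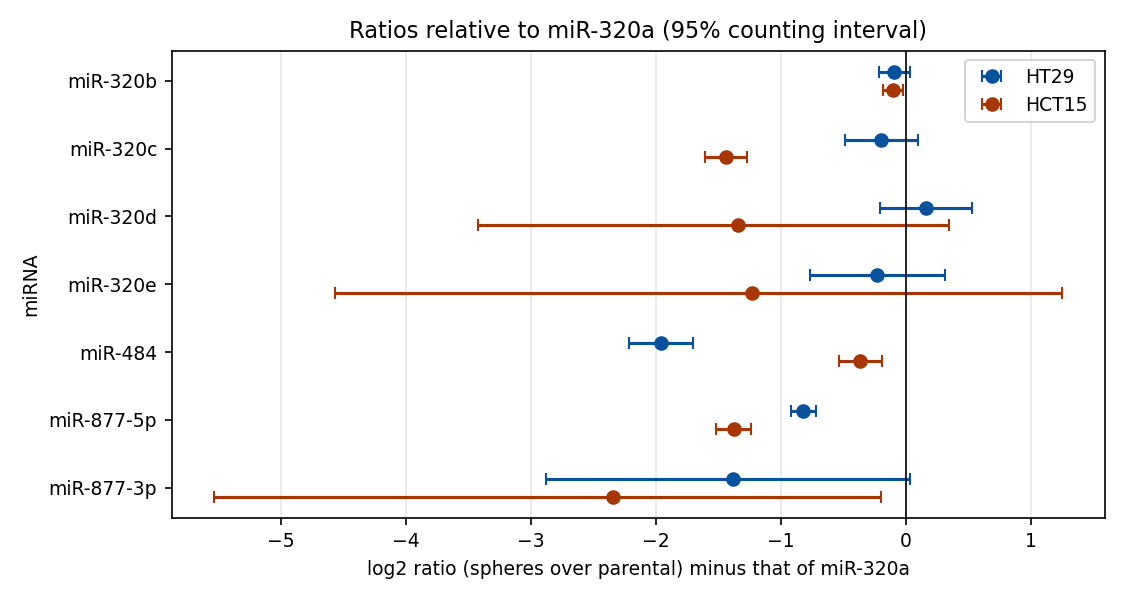
Difference between the log2 ratio (spheres over parental cells) of each miRNA and that of miR-320a (x axis), in which the library scaling cancels, with 95% counting intervals, in HT29 (blue) and HCT15 (brown). miR-877-5p lies at -0.82 and -1.38, miR-484 at -1.96 and -0.36, and miR-320c at -0.20 and -1.44.

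Shares within the family give the same measurements as proportions. Of HT29 miR-320 reads, miR-320a and miR-320b took 47.1% and 44.3% in the parental and 48.6% and 43.0% in the sphere library. In HCT15 they took 44.2% and 44.8% in parental cells and 49.2% and 46.3% in spheres. miR-320c held 4.64% (Wilson interval 4.02% to 5.36%) of them before and 4.18% (3.72% to 4.70%) after sphere culture in HT29. In HCT15 it held 10.9% (10.3% to 11.4%) and 4.46% (4.06% to 4.89%). The HCT15 parental library was the one apart, and the other 3 intervals overlapped. miR-320d held 2.62% and 3.02% in HT29 but 0.0928% and 0.0423% in HCT15, and miR-320e 1.35% and 1.19% against 0.0469% and 0.0204%. miR-320c outnumbered miR-320d 1.77 to 1 in HT29 parental cells and 117 to 1 in HCT15 parental cells, although the mature sequences printed above differ only in their last bases.

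**Figure D4:**
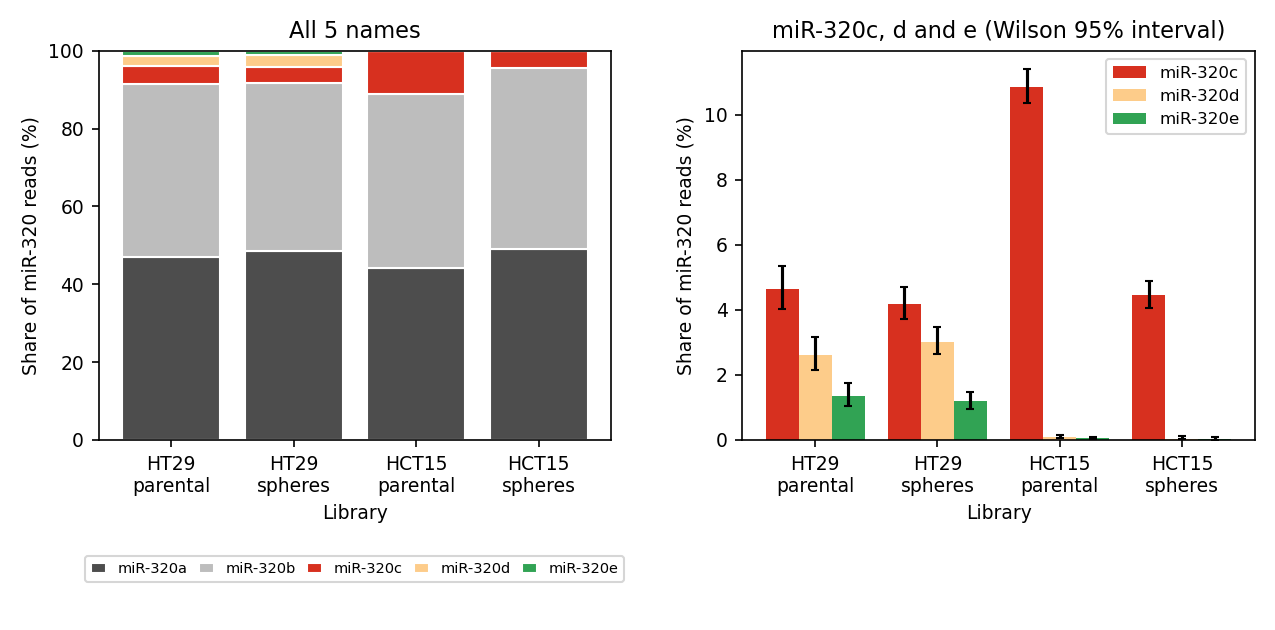
Share of all miR-320 reads (y axis, percent) by name in each library, for all 5 names (left) and for miR-320c, miR-320d and miR-320e alone on a wider scale (right, with Wilson 95% intervals). miR-320c is at 10.9% in HCT15 parental cells and between 4.18% and 4.64% in the other 3 libraries, and miR-320d and miR-320e are near 0 in HCT15.

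For miR-877 the 5p arm, which begins at the first base of the intron, made up 99.8% (Wilson interval 99.6% to 99.9%) and 99.9% (99.7% to 99.9%) of reads of both arms in the parental and sphere libraries of HT29. In those of HCT15 it made up 99.4% (99.0% to 99.7%) and 99.6% (98.9% to 99.9%). The arm preference thus had the same direction in all 4 libraries, at 165 to 694 reads of the 5p arm for each of the 3p arm.

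Other mirtrons were scarce and did not move in 1 direction. The list held miR-1224 to miR-1229, miR-1236, miR-1237 and miR-1238, all of whose hairpins begin and end like an intron. In HT29, 10 of 13 listed arms had reads and 0 reached a mean of 10 CPM. In HCT15, 9 of 18 had reads and 1 reached that mean, miR-1224-5p, with 16.2 CPM before and 23.7 CPM after sphere culture (log2 ratio 0.87, interval 0.31 to 1.46). Intervals excluded 0 for 4 arms in HT29 and 2 in HCT15, named here after their values were seen. In HT29, miR-1224-5p was higher (9 to 68 reads, 2.14, 1.32 to 3.52), while miR-1226-3p (29 to 15 reads, -1.40, -2.54 to -0.59), miR-1228-3p (16 reads to 1, -2.96, -9.98 to -1.90) and miR-1229 (56 to 37 reads, -1.14, -1.83 to -0.56) were lower. In HCT15 the remaining arm was miR-1226-5p, at about 33.9 reads in parental cells and listed at 0 in spheres. The list's median log2 ratio, arms listed at 0 included, was -0.15 in HT29 and 0.00 in HCT15. miR-451a, which needs Drosha but bypasses Dicer, had 10 and 12 reads in HT29 and was listed at 0 in HCT15.

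A further 3 listed miRNAs carry the seed of one of the 8 in the RefSeq table. miR-4429 has the seed AAAGCUG of miR-320b, miR-320c and miR-320d, and miR-3155a and miR-3155b have the CAGGCUC of miR-484. None passed 10 CPM: miR-4429 measured 5.51 and 4.61 CPM in the parental and sphere libraries of HT29 and 0.471 and 0.475 CPM in those of HCT15, and miR-3155a did not exceed 4.24 CPM.

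The miRNAs with the most similar profiles over the 4 libraries were sought among 234 others whose mean reached 50 CPM, by Euclidean distance between log2 profiles after subtracting each profile's mean. For the summed miR-320 family they were let-7f-2-3p (distance 0.147), miR-26a-5p (0.244) and miR-181c-5p (0.295), against a median distance of 3.86. Each was several-fold higher in HCT15, as miR-26a-5p at 2449 and 1729 CPM in HT29 and 14066 and 11985 in HCT15. In the order named, their log2 ratios were 0.27, 0.05 and 0.32 in HT29 and 0.44, 0.12 and 0.61 in HCT15. For miR-484 the nearest was miR-16-5p (0.364), whose log2 ratio was -1.82 in HT29 and -0.25 in HCT15, followed by miR-1296 (0.675) and miR-222-3p (0.846). For miR-877-5p the nearest were miR-339-3p (0.435), miR-589-5p (0.512) and miR-151a-5p (0.586). miR-339-3p and miR-589-5p had log2 ratios of -0.04 and -0.02 in HT29, where miR-877-5p had -0.61, and of -0.70 and -0.72 in HCT15; those of miR-151a-5p were -0.61 and -0.34. With 4 libraries, closeness of this kind describes these profiles only.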

How the data were processed

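Per the labels' protocols, libraries were built from 1 ug of total RNA (TruSeq Small RNA Sample Prep). Per the file headers, the HT29 files hold read counts and the HCT15 files RPKM for each mature miRNA, under miRBase release 19 names, as deposited by the authors. The submitters' processing notes name the build hg19; positions here are from RefSeq and GENCODE 29 on GRCh38, and none was converted. The aligner, the trimming and how a read matching several miRNAs was counted: not given in the sources used here.

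HCT15 RPKM values were turned into approximate reads. The value of 1 read grew with the length L of the mature miRNA as L/(L + 9), and was 0.162 in parental cells and 0.263 in spheres at 22 bases (22 was also used where no length was at hand, as for miR-320a). Within 0.02 reads, this made 65.6% of 323 and 63.8% of 105 low values whole, against 46.4% and 34.3% with a single value. With 8 in place of 9, 65.9% and 64.8% of the same low values were whole, so these shares do not single out 9. The reads summed to about 3184749.4 and 2317669.9, beside 5806540 and 12794274 in HT29. The value of 1 read in HCT15 spheres assumes how many reads the commonest low value there stands for. The read numbers of HCT15 spheres, their sum, the limit of 3 reads in CPM and the HCT15 counting intervals rest on that assumption.

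Within a line, log2 ratios used TMM over the 4 libraries (edgeR 4.0.16) and a prior count of 2, with exact conditional binomial intervals; pairs of miRNAs were compared by conditional odds ratios (scipy 1.17.1). With 1 library per group neither is a test. Across lines, limma 3.58.1 in R 4.3.3 was fitted on log2 of TMM-scaled CPM plus 1, with a mean-variance trend and cell line as a block, over miRNAs that reached 10 CPM in 2 or more libraries. It has 1 residual degree of freedom, which holds how far the difference between cultures varied between the 2 lines. Its p-values also borrow variance from the other miRNAs, with a median of 2.70 prior degrees of freedom. Alternatives were edgeR and DESeq2 1.42.0 on rounded reads and, for TMM, total reads, totals without the 10 most abundant miRNAs, DESeq2 size factors, the upper quartile and TMM within a line (6 scalings in all). The scripts were tested on simulated data. All 8 members are named, with mirtrons, miR-451a, miRNAs of the same seed and the 3 nearest profiles by rule. Members, lists and rules were chosen with earlier results of these data known.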

Additional observations from a re-analysis of the deposited data

Results flagged for a closer look

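Of the 8 miRNAs, 3 had TMM ratios of opposite sign in the 2 lines. Each line is 1 pair of libraries, and the difference between lines was not tested. The share of all miRNAs with opposite signs was not computed, so this count does not set the 8 apart. Median log2 ratios of all miRNAs at 10 CPM or more lay near 0, at -0.09 in HT29 and 0.05 in HCT15. miR-484 differed most, with a log2 ratio in HT29 minus that in HCT15 of -1.83 (counting interval -2.11 to -1.54), and -2.03 to -1.61 over the scalings. For miR-320c the difference was 0.99 (0.68 to 1.31), and 0.79 to 1.20 over the scalings. For miR-320d it was 1.02, with an interval of -0.63 to 2.67 that includes 0. For all 3 the sign of the smaller ratio changed with the scaling, as for miR-320d in HT29, at -0.18 with total reads. For miR-484 and miR-320c the size of the difference thus holds over the scalings, and the opposite sign does not.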

How the results depend on the processing

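The sign of a small ratio depended on the scaling. In HT29, with total reads and with totals that leave out the 10 most abundant miRNAs, miR-320a was at -0.34 and -0.042, miR-320b at -0.43 and -0.13 and the summed miR-320 family at -0.39 and -0.088, against 0.16 for the sum with TMM; miR-320d was at -0.18 with total reads. The family sum in HT29 was 0.22 with DESeq2 size factors, 0.42 with the upper quartile and 0.38 with TMM over the line's 2 libraries. In HCT15, where it was 0.30 with TMM, it was -0.049 with total reads, 0.52 with DESeq2 size factors, 0.54 with the upper quartile and 0.060 without the 10 most abundant. miR-484 in HT29 was -2.28 with total reads and -1.48 with the upper quartile; in HCT15 it was -0.26, 0.31, 0.33 and -0.15 with total reads, DESeq2 size factors, the upper quartile and totals without the 10 most abundant. In that order miR-877-5p was -1.16, -0.55, -0.35 and -0.86 in HT29, with -0.40 for TMM over the line's 2 libraries, and -1.27, -0.71, -0.68 and -1.16 in HCT15. Across lines, miR-320a and miR-320b were at -0.12 and -0.22 with total reads. The number of miRNAs called across lines was 6 without a filter, 3 with DESeq2 size factors and 5 with DESeq2 on reads, against 0; no member was among them. Differences between miRNAs in a line and shares within the family involve no scaling of libraries, but HCT15 shares depend on how RPKM was turned into reads. For HCT15, a single value of 1 read was also tried. So was the commonest low sphere value taken as 4 reads in place of 2, an alternative chosen after the data were seen. The 2 reads are themselves an assumption, on which HCT15 sphere read numbers and counting intervals rest. Both alternatives change reads by factors that cancel in the differences between miRNAs, except for rounding. The HCT15 differences of miR-320b, miR-320c, miR-484 and miR-877-5p from miR-320a hardly moved, which was fixed in advance and is no test of them. Shares did shift with a single value of 1 read: miR-320c held 10.6% of miR-320 reads in HCT15 parental cells and 4.34% in spheres. The main values were 10.9% and 4.46%. Taken as 4 reads, the interval of miR-484 against miR-877-3p (-0.17 to 5.18) became 0.07 to 3.51, so that 12 HCT15 pairs excluded 0 in place of 11; in both lines there were still 6. Leaving out a line leaves no test, and its value is the other line's ratio. The fit across lines pairs the cultures by cell line as its block; the labels give no replicate numbers for a further block.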
